A study of Mus musculus with 6 samples.

Results

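The genes described here are 9 markers of primitive endoderm, the transcription factors Gata4, Gata6, Sox17 and Sox7, the receptor Pdgfra, the endocytic proteins Lrp2, Cubn and Dab2, and the secreted inhibitor Tfpi. They were chosen by name, and every probe that the platform annotation assigns to one of these symbols was taken. This gave 22 of the 45281 probes on the array and 9 of 19057 named genes. Expression was compared between i2PS cells, a pluripotent line that the labels derive from hepatocytes of BALB/c liver reprogrammed in vivo, and E14TG2A, an embryonic stem cell line of strain Sv129 from the inner cell mass, bought from ATCC, which served as the reference. Each line had 3 arrays of separate cultures, called biological replicates in the design text. Both lines were grown with LIF in DMEM, at first on feeders of mouse embryonic fibroblasts and then through 3 passages on gelatin that removed the feeders. Strain, tissue of origin and the way pluripotency arose all differ between the lines and cannot be told apart, and the labels do not say whether i2PS is 1 clone.

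Primitive endoderm is the epithelium that forms on the surface of the inner cell mass beside the pluripotent epiblast, and it gives rise to the visceral and parietal endoderm of the yolk sac. FGF signalling favours this fate, and GATA6 and then SOX17, GATA4 and SOX7 carry it, while NANOG opposes it in the epiblast. Its cells sort to the surface with the help of DAB2, and they take up maternal nutrients through the large endocytic receptors megalin, the product of Lrp2, and cubilin. Embryonic stem cell cultures are known to hold rare cells with such features, and GATA factors can turn embryonic stem cells into extraembryonic endoderm.

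Primitive endoderm genes did not all move in 1 direction. Lrp2 was 3.89-fold lower in i2PS than in E14TG2A and Tfpi was 2.35-fold higher, while Dab2 fell slightly and Gata6 and Sox7 did not pass the test. Tfpi lay close to background and entered the test through i2PS alone. Its log2 difference of 1.23 was 0.44 without background correction. Gata4, Sox17 and Cubn were detected on no array and Pdgfra on 1. Of 9 genes 5 could therefore be tested, where 45.4% of all named genes on the array were, and of these 1 was higher, 2 were lower and 2 did not pass. Lines were compared with limma, a linear model with moderated variances, and p-values were adjusted over all genes by Benjamini-Hochberg at a threshold of 0.05. In this fit 43.7% of all 8652 tested genes passed, 23.3% higher and 20.4% lower in i2PS, so that 3 of 5 genes is a small count close to that background. With every kept probe fitted by itself, 1 of the 6 probes of these genes was higher and 2 were lower, where 40.6% of all kept probes passed, 21.7% higher and 18.9% lower. The median difference of the 5 was 0.33 (log2), against 0.03 over all tested genes. It is the value of Gata6, which did not pass, and it counts Tfpi, which entered through i2PS alone. It therefore shows no shift of these genes.

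A probe was called detected where its detection p, which ranks it among the negative controls of its own array, was under 0.01. It was tested if it was detected on all 3 arrays of at least 1 line. E14TG2A replicate 1 was dim, with a mean signal of 228 against 340 to 403 elsewhere and with 13994 detected probes against 14953 to 15922, and results that rest on it are also given without it. All 10 pluripotency markers were detected well enough to be tested, whereas only Ass1 and Hnf4a of 10 hepatocyte markers were detected on any array, and Alb, the main serum protein of hepatocytes, on none.

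**Figure D1:**
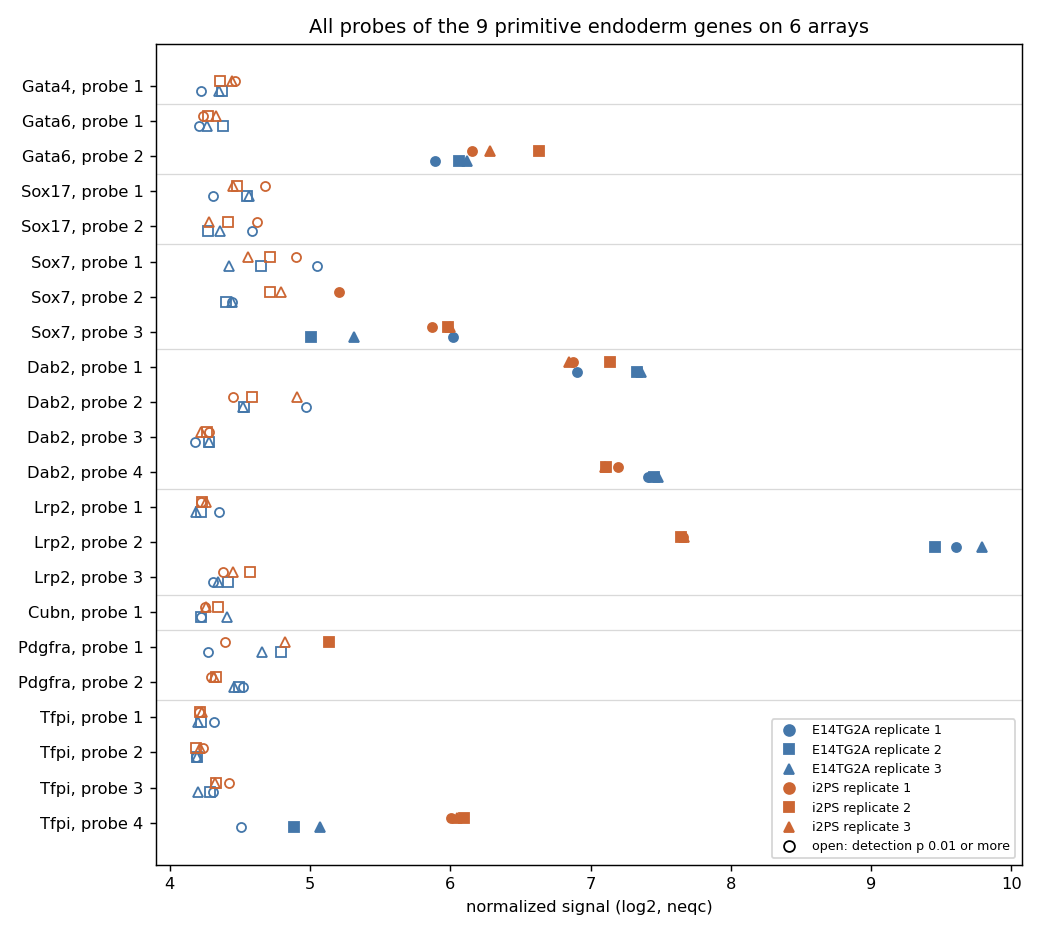
Normalized log2 signal (x axis) of each of the 22 probes of the 9 genes (y axis) on each array, blue for E14TG2A and orange for i2PS, with a shape for each replicate. Symbols are open where the detection p was 0.01 or more. Only 6 probes, of Gata6, Sox7, Dab2 (2 probes), Lrp2 and Tfpi, were bright enough to be tested, and 14 were detected on no array. Levels of different probes cannot be set against each other.

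Lrp2 encodes megalin, a receptor of the LDL receptor family that takes up lipoproteins, vitamins and their carriers at the apical surface of visceral endoderm and kidney epithelium. Its gene lies at chr2:69424335-69586029 (GRCm38.p6). Its promoter is shown with that of Tfpi because these genes had the largest fall and the largest rise of those tested. Each sequence holds the 250 bases before a RefSeq start (GRCm38.p6, minus strand, 5′ to 3′), at chr2:69586030-69586279 for Lrp2 and at chr2:84476760-84477009 and chr2:84474175-84474424 for the starts of Tfpi. Capitals mark matches to GATAA, the core bound by GATA factors, or to ACAAT, a core bound by SOX factors, on either strand (TTATC or ATTGT on the other).
Lrp2: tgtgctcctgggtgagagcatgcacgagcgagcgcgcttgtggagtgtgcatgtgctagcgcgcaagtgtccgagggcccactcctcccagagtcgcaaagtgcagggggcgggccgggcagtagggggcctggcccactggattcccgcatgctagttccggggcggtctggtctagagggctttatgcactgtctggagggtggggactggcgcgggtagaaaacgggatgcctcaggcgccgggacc
Tfpi, first start: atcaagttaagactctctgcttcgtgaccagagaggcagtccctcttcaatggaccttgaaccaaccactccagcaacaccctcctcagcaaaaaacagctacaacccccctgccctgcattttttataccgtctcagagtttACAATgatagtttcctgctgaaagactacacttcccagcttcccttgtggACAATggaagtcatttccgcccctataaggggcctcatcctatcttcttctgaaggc
Tfpi, second start: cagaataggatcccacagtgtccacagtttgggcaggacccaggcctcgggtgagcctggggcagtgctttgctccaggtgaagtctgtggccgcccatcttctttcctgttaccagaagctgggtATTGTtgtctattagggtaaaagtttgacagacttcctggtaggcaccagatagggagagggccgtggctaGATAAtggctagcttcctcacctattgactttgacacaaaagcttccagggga

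The Lrp2 window held neither motif and had 18 CpG dinucleotides, against a median of 6 over the 32851 promoters of the table. The first Tfpi window held ACAAT 2 times and no GATAA, and the second held each motif 1 time, with 3 CpG dinucleotides in both. Over all promoters 22.6% held the GATA motif and 27.7% the SOX motif in 250 bases, so a match is common and describes the sequence only. Of the 9 genes, 5 had an entry in the promoter table.

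The raw signal of the tested Lrp2 probe was 457, 849 and 1248 on E14TG2A replicates 1 to 3 and 280, 290 and 283 on i2PS replicates 1 to 3. After normalization the E14TG2A values were 9.60, 9.46 and 9.79 (log2) and the i2PS values were 7.66, 7.64 and 7.67. All E14TG2A arrays were high and all i2PS arrays were low, with no overlap, and the raw signal spread widely among E14TG2A arrays whereas the normalized values did not. The difference was -1.96 ± 0.12 (i2PS minus E14TG2A, log2 scale, SE, n = 3 arrays a line; adjusted p = 5.6e-06 by limma), with a 95% interval from -2.22 to -1.70. By size it ranked 73 among 8652 tested genes, and 0.64% of them had a lower value. Without E14TG2A replicate 1 the difference was -1.98 (adjusted p = 1.1e-05). In bulk RNA, fewer expressing cells and less RNA per cell cannot be told apart. The other 2 Lrp2 probes were detected on no array and differed by -0.02 and 0.11 (log2), so that the fall rests on 1 probe.

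Fibroblast markers, which would mark feeder cells, went in both directions. Their summed level, over genes detected or not, was 521 to 682 (normalized signal, linear scale) in i2PS against 3961 to 4991 in E14TG2A. Of 12 such genes 6 were detected on any array and 4 tested, 2 higher and 2 lower, where 43.7% of all tested genes passed. Acta2, smooth muscle actin, carried the difference at -5.16 ± 0.17 (log2), and Tagln, an actin-binding protein, was at least 3.47-fold lower. Thy1, a surface protein, was higher by 0.84 ± 0.16, and Fbln2, a matrix protein, was at least 5.49-fold higher in i2PS. The fibroblast collagens Col1a2 and Col3a1, and Lum, Postn, Pdgfrb and Twist2, were detected on no array. Col1a1 was detected on 2 arrays and Dcn on 1, and neither was tested. The part of such cells in the Lrp2 difference was not tested.

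Cubn encodes cubilin, which works beside megalin in uptake and lies on the same chromosome at chr2:13276338-13491876. Its only probe gave signals of 81.1, 88.8 and 101.6 in E14TG2A and 88.1, 95.4 and 89.6 in i2PS. All 6 detection p-values were 0.24 or more, so no level of Cubn could be told from background in either line.

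Dab2, at chr15:6299788-6440715, encodes an adaptor that links megalin and related receptors to clathrin. Of its 4 probes 2 were detected on all arrays. The probe that stands for the gene had normalized values of 7.41, 7.45 and 7.48 (log2) in E14TG2A replicates 1 to 3 and 7.19, 7.11 and 7.10 in i2PS replicates 1 to 3. Every i2PS array was lower than every E14TG2A array, by a small margin. Dab2 fell by 0.31 ± 0.10 on the log2 scale (SE, n = 3 arrays a line; adjusted p = 0.029 by limma), and its interval from -0.54 to -0.09 excluded a 2-fold difference. The second detected probe was at 6.90, 7.33 and 7.36 in E14TG2A and 6.87, 7.14 and 6.85 in i2PS, where the lines overlapped at E14TG2A replicate 1. Its difference of -0.24 ± 0.15 did not pass (adjusted p = 0.23 over 12841 probes), but without E14TG2A replicate 1 it was -0.40 (adjusted p = 0.030).

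The call of Dab2 did not hold in every setting and ended in 7 of 18 alternatives. These were the fits in which either of E14TG2A replicates 2 and 3 or either of i2PS replicates 2 and 3 was left out (adjusted p = 0.077, 0.075, 0.094 and 0.105), the fit with the replicate number as a block (0.059), that with the mean of its probes (0.065) and the fit with equal medians (0.89). In the 7 its difference ran from -0.31 to -0.14.

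**Figure D2:**
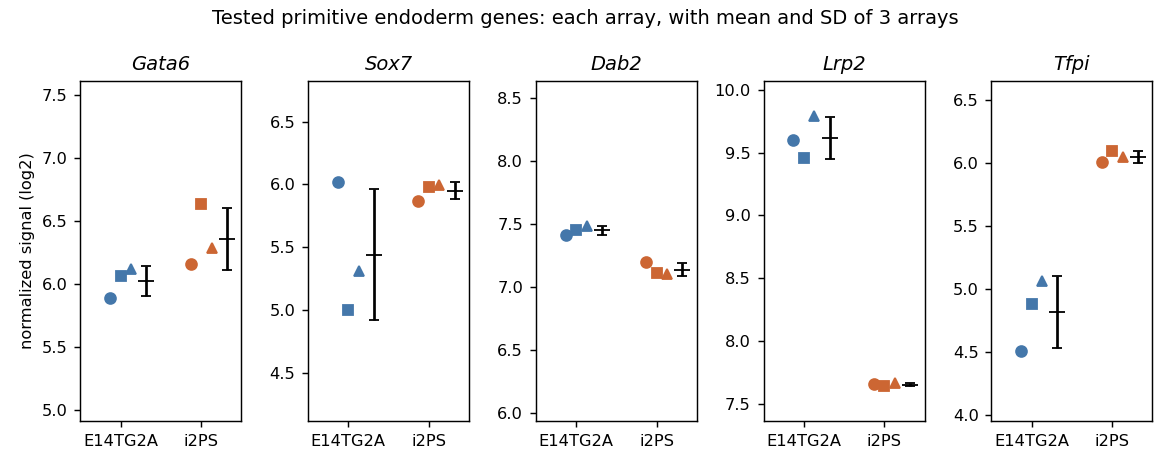
Normalized log2 signal (y axis, 1 panel per gene, all panels of the same height in log2 units) of the 5 tested genes in E14TG2A (blue) and i2PS (orange). Circles, squares and triangles are replicates 1, 2 and 3, and the bars beside them give mean and SD of 3 arrays. The lines lie apart for Lrp2, Tfpi, Dab2 and, narrowly, Gata6, and overlap for Sox7 through E14TG2A replicate 1.

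Tfpi encodes tissue factor pathway inhibitor, a secreted protein that blocks the start of coagulation and is made by parietal endoderm and endothelium. Its gene lies at chr2:84432855-84476775, with the promoter windows given above. The detected probe of 4 had raw signals of 89.2, 107.7 and 121.7 on E14TG2A replicates 1 to 3 and 139.7, 150.0 and 143.5 on i2PS replicates 1 to 3. Its detection p was 0.15, 0.0064 and 0.0021 in E14TG2A, so that it was detected there on 2 of 3 arrays and entered the test through i2PS alone. Normalized, the values were 4.51, 4.88 and 5.07 (log2) in E14TG2A and 6.01, 6.10 and 6.05 in i2PS.

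All i2PS arrays were above all E14TG2A arrays for Tfpi, and the i2PS values were close together. Tfpi rose by 1.23 ± 0.15 (SE, log2 scale, n = 3 arrays a line; adjusted p = 2.2e-04 by limma), with an interval from 0.90 to 1.56, and 98.5% of tested genes had a lower value. Since both lines lie close to background, the size depends on the background correction. It was 0.67 with normexp and an offset of 50, 0.44 without correction and 0.45 in the authors' table (adjusted p from 1.3e-04 to 6.6e-04). Without E14TG2A replicate 1 it was 1.13 (adjusted p = 8.4e-05). The other 3 Tfpi probes were detected on no array, and their differences lay between -0.03 and 0.09.

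Endothelial markers were examined beside Tfpi and Sox7, which endothelium also expresses. Of 11 such genes 7 were detected on any array and 5 tested, 2 higher and 2 lower, where 43.7% of all tested genes passed. The summed level of these markers, detected or not, was 702 to 767 (normalized signal, linear scale) in i2PS and 715 to 795 in E14TG2A, which overlap. This sum adds signals at background and sets falls against rises, so it does not measure how many such cells were present. Robo4 and Esam, both of endothelial junctions or guidance, were detected in i2PS only, at least 3.31-fold above E14TG2A for Robo4 and at least 3.05-fold for Esam. Eng, a TGF-beta co-receptor, fell by 0.67 ± 0.15 (log2), as did Pecam1 by 1.16 ± 0.11, though another Pecam1 probe passed in the opposite direction. Tek did not pass, at 0.14 ± 0.14 (limma adjusted p = 0.41), and Cdh5 was detected on 1 array and not tested. Kdr, Tie1, Emcn and Erg were detected on no array, and the part of such cells in the Tfpi difference was not tested.

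Among the transcription factors Gata6, which starts the primitive endoderm programme and lies on chromosome 18, was detected on all 6 arrays with 1 of its 2 probes. Its normalized values were 5.89, 6.06 and 6.12 (log2) in E14TG2A replicates 1 to 3 and 6.15, 6.63 and 6.28 in i2PS replicates 1 to 3. The lines did not overlap, as was the case for 4 of the 5 tested genes and for 55.8% of all tested genes. The gap between the nearest arrays was small, and i2PS replicate 2 stood highest. The difference of 0.33 ± 0.14 (log2, SE, n = 3 per line) did not pass (limma adjusted p = 0.086). Its interval from 0.01 to 0.65 excluded a 2-fold difference. Without i2PS replicate 2 it was 0.19 (adjusted p = 0.30), a change of over 1.5 times. The second Gata6 probe was detected on no array.

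Gata4, a partner of Gata6 that follows it in primitive endoderm, lies at chr14:63198914-63271712 and had 1 probe. Its signal was 81.1, 95.6 and 99.5 in E14TG2A and 95.3, 96.0 and 96.4 in i2PS, and its lowest detection p was 0.168. Sox17, an HMG-box factor of primitive and definitive endoderm at chr1:4490928-4497426, had 2 probes with signals of 84.8 to 106.6 and 90.3 to 99.9. The lowest detection p of Sox17 was 0.042. Neither factor reached the level at which a signal could be told from background, which on these arrays began at 96.3 to 115.3.

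Sox7, a relative of Sox17 at chr14:63943706-63950732, had 3 probes and was detected on all 6 arrays with 1 of them. That probe was at 6.02, 5.004 and 5.31 (log2) in E14TG2A replicates 1 to 3 and at 5.87, 5.98 and 5.999 in i2PS replicates 1 to 3. E14TG2A replicate 1 was as high as the i2PS arrays, while the other E14TG2A arrays were below them. With all arrays Sox7 differed by 0.51 ± 0.22 (SE, n = 3 arrays a line; adjusted p = 0.092 by limma), with an interval from 0.0077 to 1.00. Without the dim E14TG2A replicate 1 it passed at 0.83 (adjusted p = 8.7e-04), and so it did with array weights (0.80, adjusted p = 6.9e-04). Another Sox7 probe was at 4.44, 4.40 and 4.45 in E14TG2A and 5.21, 4.71 and 4.79 in i2PS. It was detected only on i2PS replicate 1, and its lines did not overlap. Its detection p was 0.18 to 0.26 in E14TG2A, where its level could not be told from background, so no size of a difference is given for it. The third Sox7 probe was detected on no array and differed by 0.02.

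Pdgfra encodes the PDGF receptor alpha, a surface marker of primitive endoderm that is also made by fibroblasts, and lies at chr5:75151322-75198206. Its brighter probe had signals of 83.5, 105.7 and 109.2 in E14TG2A and 93.5, 114.8 and 104.8 in i2PS. Its detection p-values were 0.65, 0.019 and 0.045 in E14TG2A and 0.27, 0.0043 and 0.017 in i2PS, so that it was detected on i2PS replicate 2 alone. The lines overlapped. The second probe was detected on no array. Over all 22 probes of the 9 genes the lines did not overlap in 7, detected or not, against 27.6% of all named probes.

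Without any filter on dim probes all 9 genes entered the fit. Gata4 then differed by 0.11 ± 0.07 (log2, SE), Sox17 by 0.06 ± 0.10, Cubn by 0.0023 ± 0.080 and Pdgfra by 0.21 ± 0.21. None of these 4 passed (adjusted p from 0.44 to 0.99), nor did any at an unadjusted p under 0.05 (lowest 0.19). Signals at background carry no fold change of the transcript, so these values do not show that the lines are alike in these genes.

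**Figure D3:**
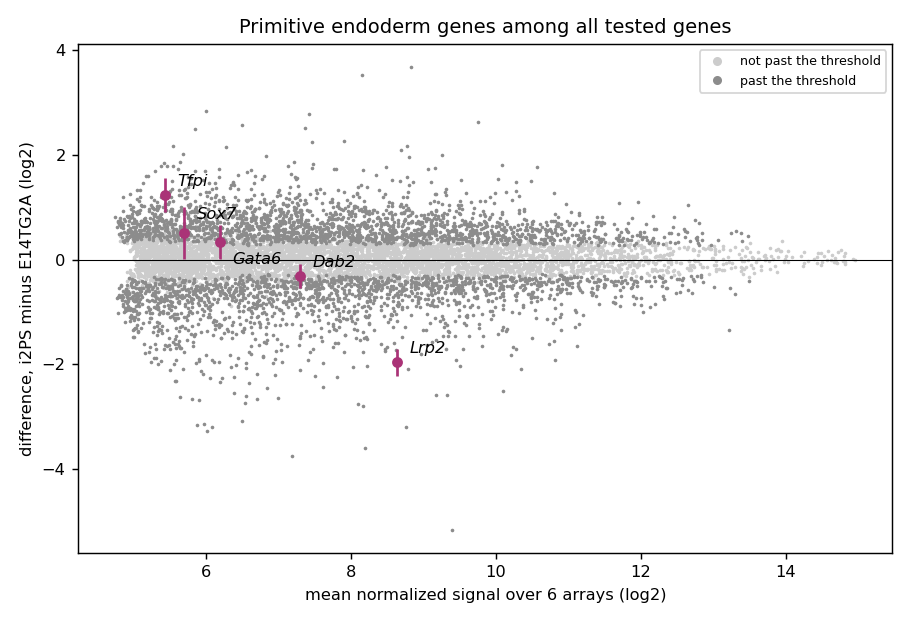
Difference i2PS minus E14TG2A (y axis, log2) against the mean normalized signal over 6 arrays (x axis, log2) for the 8652 tested genes, dark grey where they passed the threshold. The 5 tested primitive endoderm genes are purple with their 95% intervals. Lrp2 lies among the larger falls at -1.96 and Tfpi among the larger rises at 1.23, while Sox7, Gata6 and Dab2 lie near the bulk of genes.

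The genes nearest to each called gene in their course over the 6 arrays, by Euclidean distance between mean-centred log2 values, were of several kinds. App, the amyloid precursor protein, and Mbp, myelin basic protein, were nearest to Lrp2 (distances 0.17 and 0.18), with differences of -1.92 and -2.00 (log2). Diras1 and Asb1 were nearest to Tfpi (0.091 and 0.12), with differences of 1.27 and 1.21. Ugcg and Plekha2 were nearest to Dab2 (0.072 each), with differences of -0.26 and -0.30, and Ugcg did not pass (limma adjusted p = 0.061). Between 2 lines this distance mostly picks genes with a like difference, so nearness shows no link between the genes.

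Beyond the 9 genes, other factors of the GATA, FOG and SoxF families gave no rise. Of 7, 6 were on the array and 3 were tested, and Gata3 and Zfpm2 fell, where 20.4% of all tested genes were lower in i2PS. Zfpm2, also called FOG2, a cofactor of GATA4, was detected on no i2PS array and was at least 2.46-fold lower there. Gata3, a trophectoderm factor, fell by 0.54 ± 0.16 on the log2 scale (limma adjusted p = 0.026) and entered the test through E14TG2A alone. Its call ended in 8 of 17 alternatives. It ended when replicate 1 or 2 of E14TG2A (0.053 and 0.065) or of i2PS (0.090 and 0.053) was left out. It also ended without background correction (0.091), in the authors' table (0.090), without a filter on dim probes (0.073) and with equal medians (0.55). Gata2 differed by 0.16 ± 0.11 (adjusted p = 0.27). At an unadjusted p under 0.05 the limma count of rises was 0 as well.

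Of 11 other endoderm transcription factors 5 were tested, 2 higher and 1 lower. Of all tested genes 23.3% were higher and 20.4% lower in i2PS, so such calls are common. Hhex, a homeobox factor of anterior endoderm, rose by 0.46 ± 0.13 (log2, SE) and Klf5, which acts in the early embryo and in pluripotency, by 0.42 ± 0.12. Foxa1 was detected on no i2PS array and was at least 1.19-fold lower (adjusted p = 0.035). These calls were close to the threshold. That of Hhex ended without E14TG2A replicate 3 (0.054) or i2PS replicate 2 (0.071), and that of Klf5 without i2PS replicate 1, 2 or 3 (0.061, 0.067 and 0.075). That of Foxa1 ended without E14TG2A replicate 1 or 3 (0.069 each) or i2PS replicate 2 or 3 (0.062 and 0.125, where its difference was -0.54 and -0.32). The Foxa1 call also ended with normexp and an offset of 50 (0.076), without background correction (0.13), in the authors' table (0.13) and without a filter on dim probes (0.093). With equal medians the calls of Hhex, Klf5 and Foxa1 all ended (0.35, 0.35 and 0.56). Their differences there were 0.62, 0.62 and -0.43. Foxa1 thus lost its call in 9 of 17 alternatives. Foxa2, a main regulator of visceral and definitive endoderm, and Eomes, Gsc and Mixl1 were detected on no array.

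The uptake machinery around megalin and cubilin was measured well, with 8 of 11 genes tested. Myo6, a myosin that moves endocytic vesicles and binds DAB2, fell by 0.85 ± 0.11 (log2, SE; adjusted p = 3.0e-04), and Ap2b1, a subunit of the clathrin adaptor, fell by 0.63 ± 0.16 (adjusted p = 0.011). The other 6 did not pass, where 43.7% of all tested genes passed, and the median was -0.29, against 0.03 over all tested genes. Among them Amn, the membrane anchor of cubilin, differed by -0.24 ± 0.13 (adjusted p = 0.16) and Lrpap1, a chaperone of megalin, by 0.06 ± 0.10 (adjusted p = 0.64). The interval of Lrpap1 ran from -0.16 to 0.28.

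Genes of the basement membrane and of parietal endoderm products were split. This list also holds a collagen chaperone, a protease and a laminin receptor. Of 14, 11 were tested, 2 rose, 5 fell and 4 did not pass. Of all tested genes 23.3% were higher and 20.4% lower in i2PS. The median of the tested genes was -0.32. The laminin chain Lama1 rose by 1.42 ± 0.11 (log2, SE; adjusted p = 2.4e-05) and Dag1, a laminin receptor, by 0.57 ± 0.18. The value of Dag1 was 0.35 without E14TG2A replicate 1, and its call ended without i2PS replicate 1 (adjusted p = 0.091) or i2PS replicate 3 (0.093). Falls were seen in Serpinh1, a collagen chaperone, by 1.45 ± 0.12, in Plat, tissue plasminogen activator, by 1.00 ± 0.12, and in Sparc, a matrix glycoprotein, by 0.95 ± 0.10. The collagen chains Col4a1 and Col4a2 fell by 0.49 ± 0.10 and 0.77 ± 0.16, while Lamc1 differed by 0.21 ± 0.12 (adjusted p = 0.19). Nid1, Nid2 and Hspg2 did not pass either. The thrombomodulin gene Thbd, a marker of parietal endoderm, was detected on no array, nor were Lamb1 and Srgn.

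Most products of visceral endoderm were at background. Of 13, only Apoe, Trf and Cited1 were detected on any array. Apoe, an apolipoprotein that many other cells also make, was well above background on all 6 arrays, with a mean of 11.16 (log2) in i2PS and 11.13 in E14TG2A. Neither Apoe, which differed by 0.04 ± 0.11 (log2, SE), nor Trf, with a difference of -0.03 ± 0.16, passed, nor did they at an unadjusted p under 0.05. Ttr, Afp, Apoa1, Apob, Rbp4 and Ihh were among the 10 that were detected nowhere.

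Ligands of the PDGF receptors were present although the receptors were at or near background. Of these ligands Pdgfa rose by 0.56 ± 0.11 (log2, SE, limma adjusted p = 0.0032), and Pdgfb fell by 0.98 ± 0.11 and Pdgfc by 0.50 ± 0.12. These 3 were the only tested genes of the list, where 43.7% of all tested genes passed. Pdgfrb and Pdgfd were detected on no array. In the FGF list 6 of 13 genes were tested, 1 higher and 1 lower, where 43.7% of all tested genes passed. Spry4, a feedback inhibitor of FGF signalling, rose by 0.59 ± 0.12 and Ptpn11, a phosphatase that relays the signal, fell by 0.34 ± 0.10, a call that ended without E14TG2A replicate 3 (adjusted p = 0.067), i2PS replicate 2 (0.083) or i2PS replicate 3 (0.073). Fgf4, the ligand that epiblast cells send to primitive endoderm, differed by -0.04 ± 0.16 and the receptor Fgfr2 by -0.11 ± 0.11. Neither passed (adjusted p = 0.85 and 0.44). Their intervals, from -0.40 to 0.32 and from -0.37 to 0.14, excluded a 2-fold difference. The other listed receptor, Fgfr1, was detected on 3 arrays and not tested, so nothing is said of it. Grb2 and Spry2 were detected on no array.

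Of 7 other genes around tissue factor, 2 were tested and 1 was lower, where 20.4% of all tested genes were lower. Gpc3, a glypican that can hold TFPI at the cell surface, fell by 1.14 ± 0.11 (log2, SE; adjusted p = 7.0e-05) while Tfpi rose, and F2r, the thrombin receptor, differed by 0.0079 ± 0.13 (adjusted p = 0.97). F3, tissue factor itself, and Tfpi2, F7 and F10 were detected on no array. Trophectoderm markers, from the other extraembryonic lineage of the blastocyst, were tested in 4 of 9 cases. Tead4 and Tfap2c rose by 0.76 ± 0.15 and 0.44 ± 0.11, and Krt7, at least 1.60-fold, and Gata3 were lower, where 43.7% of all tested genes passed.

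**Figure D4:**
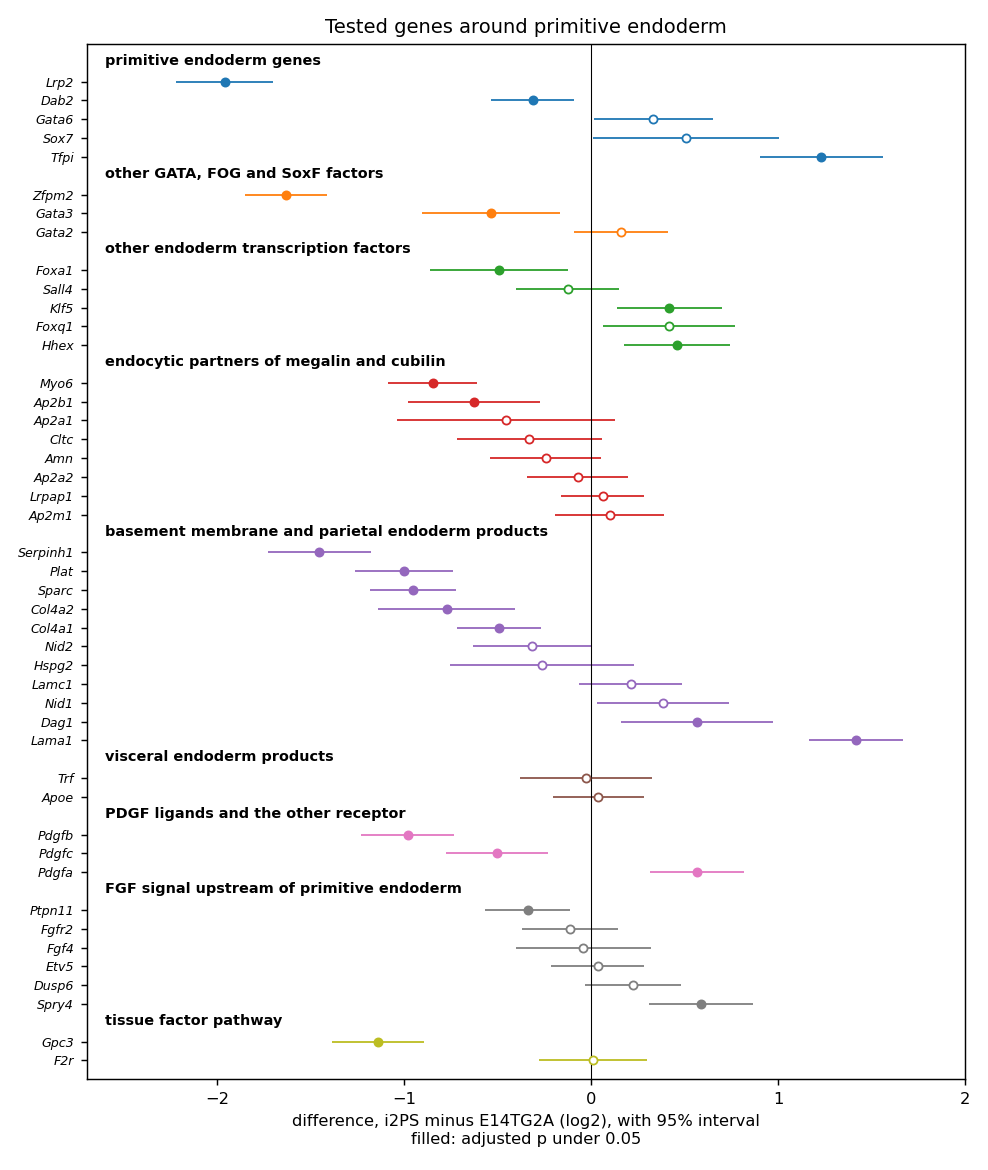
Difference i2PS minus E14TG2A (x axis, log2) with its 95% interval for each tested gene (y axis) of the primitive endoderm genes and of 8 lists around them, filled where the adjusted p was under 0.05. Apart from the 2 visceral endoderm genes, which did not pass, each of these lists held at least 1 called gene, and the PDGF, FGF, basement membrane, endoderm factor and primitive endoderm groups held calls in both directions. In the same fit 43.7% of all tested genes passed, 23.3% higher and 20.4% lower, so such calls are common in any list.

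**Figure D5:**
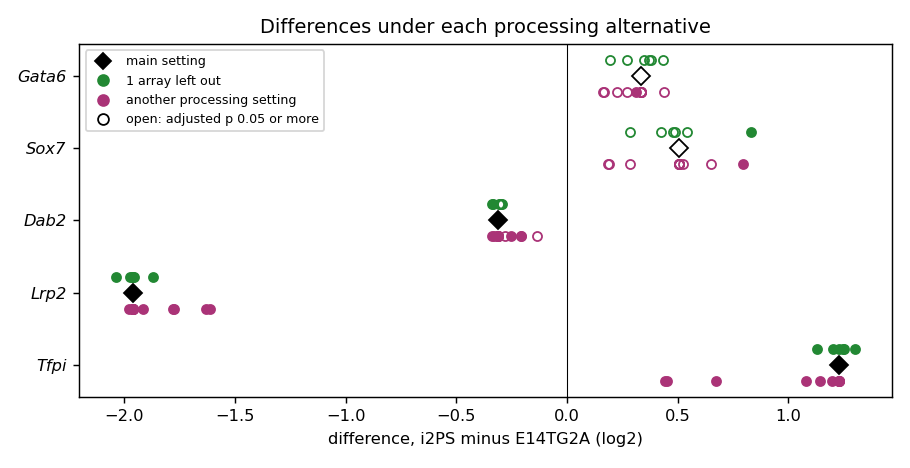
Difference i2PS minus E14TG2A (x axis, log2) of the 5 tested genes (y axis) in the main setting (diamonds), with 1 array left out (green) and under other processing (purple), open where the adjusted p was 0.05 or more. Lrp2 and Tfpi passed in each setting where they were tested, Dab2 lost its call in several, and Gata6 and Sox7 passed in 1 and 2 of them.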

How the data were processed

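Total RNA of 6 cultures was labelled with biotin and hybridised to Illumina 1-colour bead arrays. The deposited table gives a linear probe intensity for each array, neither background-corrected nor normalized between arrays, and the authors deposited a detection p-value beside each signal, in steps of 1 in 936. GenomeStudio is named in the submitters' processing notes, with no version or setting given in the sources used here. The authors' processed intensity values, quantile-normalized as read from the values, served as an alternative.

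With limma 3.58.1 in R 4.3.3, neqc corrected the background through the detection p-values with an offset of 16 and quantile-normalized the log2 values. Probes were named by the platform annotation of GEO, updated by gene number from the RefSeq table of GRCm38.p6 (34807 of 34885 probes with 1 symbol matched). Probes with several symbols (18) or unlisted (10378) were left out. The brightest kept probe stood for a gene, and kept probes were also fitted singly. Lines were compared with lmFit and eBayes and Benjamini-Hochberg adjustment over all tested genes at 0.05. A gene undetected throughout 1 line has only a lower bound of its fold, set against the lowest detected signal of each array there. The fit was also run on simulated data with independent noise, in which far fewer genes differed than passed here. That run does not gauge the calls made here.

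The 9 genes and the lists around them were chosen with earlier results of these data known. The rule for names was all 9 genes, up to 3 rises and 3 falls per list, and the 2 nearest genes of each called gene. Other genes were named after their values were seen. Alternatives were another background correction, normalization, filter, probe summary or variance model, the authors' table, array weights, a block by replicate number, and leaving out each array. With so few arrays the precision is limited.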

Additional observations from a re-analysis of the deposited data

How the results depend on the processing

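Lrp2 and Tfpi kept their direction and their call in each of the 18 and 17 alternatives in which they were tested, with differences from -2.04 to -1.61 and from 0.44 to 1.30 (log2). Tfpi was not tested among genes detected on all 6 arrays, where 0 of 4 tested primitive endoderm genes and 0 of their probes were higher by limma (2 and 2 at an unadjusted p under 0.05). Without a filter on dim probes 9 genes were tested. Array weights gave 3 higher genes and 2 higher probes, since Gata6 at 0.31 and Sox7 at 0.80 then passed, and a detection p under 0.05 gave 2 higher probes, Tfpi and a Sox7 probe that was at background in E14TG2A and entered through i2PS alone. The lower genes numbered 1 with equal medians (Dab2 at -0.14), with the mean of probes (Dab2 at -0.28) and with the replicate block (Dab2 at -0.31, adjusted p = 0.059), and the lower probes 1 with equal medians, the replicate block, and a variance trend with robust moderation. With 1 array left out, higher genes and higher probes numbered 1 to 2, lower genes 1 to 2 and lower probes 1 to 3 (3 without E14TG2A replicate 1, with both detected Dab2 probes), Sox7 ran from 0.28 to 0.83 and Dab2 from -0.34 to -0.30. The cause was not tested.

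With equal medians the median difference of all genes moved from 0.03 to 0.19, and 634 genes passed, 357 higher and 277 lower, against 3782 (2018 and 1764). Of 34 called genes of the other lists, 26 then lost their call and 0 changed direction. In the probe fit of this setting each kept probe of the tested primitive endoderm genes had an SE of 0.35. In the main probe fit the SE was 0.10 to 0.22. Hhex and Klf5 were at 0.62 each with equal medians, Dab2 at -0.14 and Foxa1 at -0.43. A lost call there thus need not mean a smaller difference. The replicate number did not pair the arrays: deviations from the line means of arrays with the same number correlated at 0.0089, -0.047 and 0.068 across genes, and not every array correlated best with its own number. Without the dim E14TG2A replicate 1, an alternative chosen after seeing the data for the lists, 1 GATA, FOG or SoxF gene was lower in place of 2 and 0 endoderm factors in place of 1. The planned block by slide was not run, as the sources used here name no slide. Signals near background limit what can be said of Gata4, Sox17, Cubn, Pdgfra and Tfpi.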
